A study of Homo sapiens with 15 samples.

Results

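The 10 genes described here encode surface proteins and 1 enzyme that are used to recognise cancer stem cells and mesenchymal stromal cells. They were chosen by name: CD44, NT5E, THY1, ENG, CD24, PROM1, EPCAM, ALCAM, MCAM and ALDH1A1, 10 of the 28395 genes in the count table. Of these, 8 carried enough reads for a test, and PROM1 and ALDH1A1 did not. RNA-seq was carried out on 15 samples of BEAS-2B, a line of human bronchial epithelial cells, grown in DMEM with fetal bovine serum, non-essential amino acids and the antibiotic Plasmocin. Exposed cells received nanoplastic particles of polyethylene terephthalate (PET-NPLs) at 50 µg/mL for 24 h, 15 weeks or 30 weeks, and each time point had untreated control cells. There were 2 control and 2 exposed samples at 24 h, 2 and 2 at 15 weeks, and 3 and 4 at 30 weeks. The samples of 24 h and 15 weeks form batch 1 and those of 30 weeks form batch 2 in the labels, so exposed and control cells were always compared within a batch, whereas 30 weeks and 15 weeks cannot be told apart from the batches. All samples come from 1 cell line, and no label says whether the replicates of a group were separate cultures, so p-values measure the spread between these samples, which may be technical.

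CD44 is the main receptor for hyaluronan, a large sugar polymer of the matrix, and a high CD44 level together with a low CD24 level is a widely used definition of stem-like cells in carcinomas. NT5E (CD73), THY1 (CD90) and ENG (CD105) are the proteins whose joint presence defines mesenchymal stromal cells in culture. ALCAM (CD166) and MCAM (CD146) are adhesion molecules of the immunoglobulin superfamily used for both kinds of cell, EPCAM marks epithelial cells, and PROM1 (CD133) and the retinaldehyde-oxidising enzyme ALDH1A1 are further stem cell markers. In bulk RNA, fewer cells of a type and less RNA per cell cannot be told apart.

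Each sample held between 23143202 and 31459990 counted reads (median 28605451). Levels are given as CPM, read counts normalised to the library size, which was scaled by the trimmed mean of M-values (TMM), errors of levels are the standard deviation (SD), and differences are log2 fold changes with their standard error (SE) from the quasi-likelihood test of edgeR. A gene was called where its Benjamini-Hochberg adjusted p over all 16740 genes tested was under 0.05. The TMM factors were lower in the 3 control samples of 30 weeks (0.739, 0.918 and 0.907) than in the 4 exposed samples (between 0.932 and 1.041). Scaled by total counts alone, the median log2 fold change of all genes at 30 weeks was 0.221 in place of 0.00775, and 77.3% of the called genes were higher in exposed cells in place of 50.7%. Replicate 2 of the exposed cells at 30 weeks stood apart from the other 3, with correlations of log2 CPM between 0.976 and 0.981, against 0.991 among those 3. The members' differences and the list counts at 30 weeks are therefore also given without that replicate.

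The sequences before the start sites of CD44, ALCAM and MCAM are shown first, since these were the members called between exposed and control cells at 30 weeks. Each is the stretch of 250 bases upstream of the RefSeq gene start in GRCh38.p14, read 5′ to 3′ on the gene's strand. CD44 lies on the plus strand (chr11:35138921-35139170), ALCAM on the plus strand (chr3:105366659-105366908) and MCAM on the minus strand (chr11:119317131-119317380). Capitals mark 2 motifs searched on both strands, the E-box CACCTG and the GC box GGGCGG, shown in capitals also where the complement was found, and neighbouring GC boxes may overlap.
CD44: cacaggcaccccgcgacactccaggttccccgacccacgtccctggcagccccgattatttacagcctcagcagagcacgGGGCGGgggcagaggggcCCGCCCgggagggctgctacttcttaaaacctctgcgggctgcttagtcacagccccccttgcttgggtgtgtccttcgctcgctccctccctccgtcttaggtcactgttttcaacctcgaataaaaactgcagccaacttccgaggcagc
ALCAM: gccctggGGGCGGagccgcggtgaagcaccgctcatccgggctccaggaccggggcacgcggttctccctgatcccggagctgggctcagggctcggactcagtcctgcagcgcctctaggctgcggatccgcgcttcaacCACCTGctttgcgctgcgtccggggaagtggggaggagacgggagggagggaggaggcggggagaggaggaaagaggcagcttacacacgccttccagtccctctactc
MCAM: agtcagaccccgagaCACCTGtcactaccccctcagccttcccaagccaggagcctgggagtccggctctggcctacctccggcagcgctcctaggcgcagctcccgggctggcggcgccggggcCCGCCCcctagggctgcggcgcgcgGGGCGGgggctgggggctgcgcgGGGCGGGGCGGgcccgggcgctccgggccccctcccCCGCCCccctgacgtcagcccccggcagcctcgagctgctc
The CD44 stretch held 2 GC boxes and no E-box, the ALCAM stretch 1 of each, and the MCAM stretch 5 GC boxes and 1 E-box, while none held TATAAA. Of 35116 promoter stretches of the same length, 17.5% held the E-box, 42.6% the GC box and 10.7% TATAAA on either strand. These matches describe the letters only.

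CD24 was by far the most abundant member at 24 h, and at 30 weeks THY1 led in control cells and CD44 and THY1 in exposed cells. Per kilobase of exon, control cells at 24 h held 297 ± 25.7 CPM of CD24 (SD, n = 2), 70.5 ± 4.72 of ALCAM, 30.1 ± 2.72 of NT5E, 29.9 ± 3.45 of THY1, 23.9 ± 4.03 of CD44, 21.1 ± 1.61 of MCAM and 3.63 ± 1.7 of ENG. CD24 is a small mucin-like protein anchored in the membrane. NT5E and THY1 differed by less than their spread. At 30 weeks the order was another one. Per kilobase, control cells held 56.2 ± 4.21 CPM of THY1 (n = 3), 28.6 ± 1.43 of CD44 and 27.7 ± 2.3 of CD24, the latter pair closer than their SDs, followed by MCAM at 22.6 ± 1.24, ENG at 12.9 ± 4.11, ALCAM at 12.4 ± 2.48 and NT5E at 11.6 ± 3.09. In exposed cells, per kilobase, CD44 stood at 47.5 ± 5.97 CPM (n = 4) and THY1 at 45.9 ± 3.09, closer than their SDs, followed by CD24 at 28.1 ± 2.88, ALCAM at 23.8 ± 5.03, NT5E at 17.5 ± 8.11, MCAM at 14.7 ± 0.187 and ENG at 13.3 ± 4.14. Exon lengths were the union of exons in GENCODE v44, which may differ from the annotation the reads were counted on.

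EPCAM, PROM1 and ALDH1A1 were at or near the limit of detection. EPCAM, the epithelial adhesion molecule on chromosome 2, had between 2 and 24 counts per sample, at most 0.877 CPM. PROM1, a pentaspan membrane protein on chromosome 4, had 0 to 2 counts in all 15 samples. ALDH1A1, on chromosome 9, had 8 counts in replicate 1 of the control cells at 15 weeks and at most 2 in the other 14 samples. A count of 0 allows up to 3 counts, which equalled between 0.0885 and 0.129 CPM in these libraries, a limit for counting error only. Changes of PROM1 and ALDH1A1 were not detectable at this depth.

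The label of bronchial epithelial cells was met by some of its markers and not by others. The simple-epithelium keratin KRT18 stood between 179 and 383 CPM and KRT8 between 127 and 710 CPM in every sample. In contrast, CDH1, the adhesion protein of epithelial junctions, had at most 27 counts, the basal cell keratins KRT5 and KRT14 at most 12 and 4 counts, and the basal cell factor TP63 at most 3. The keratins KRT17 and KRT7 stood at 152 ± 19.7 and 1310 ± 141 CPM in control cells of 24 h. In controls of 30 weeks they stood at 0.265 ± 0.188 and 1.93 ± 0.708 CPM. KRT19 reached at most 12.1 CPM and CLDN4 at most 19 counts. Vimentin (VIM), an intermediate filament of mesenchymal cells, stood at 1600 ± 236 CPM (n = 3) in control cells and 1290 ± 113 CPM (n = 4) in exposed cells at 30 weeks.

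**Figure D1:**
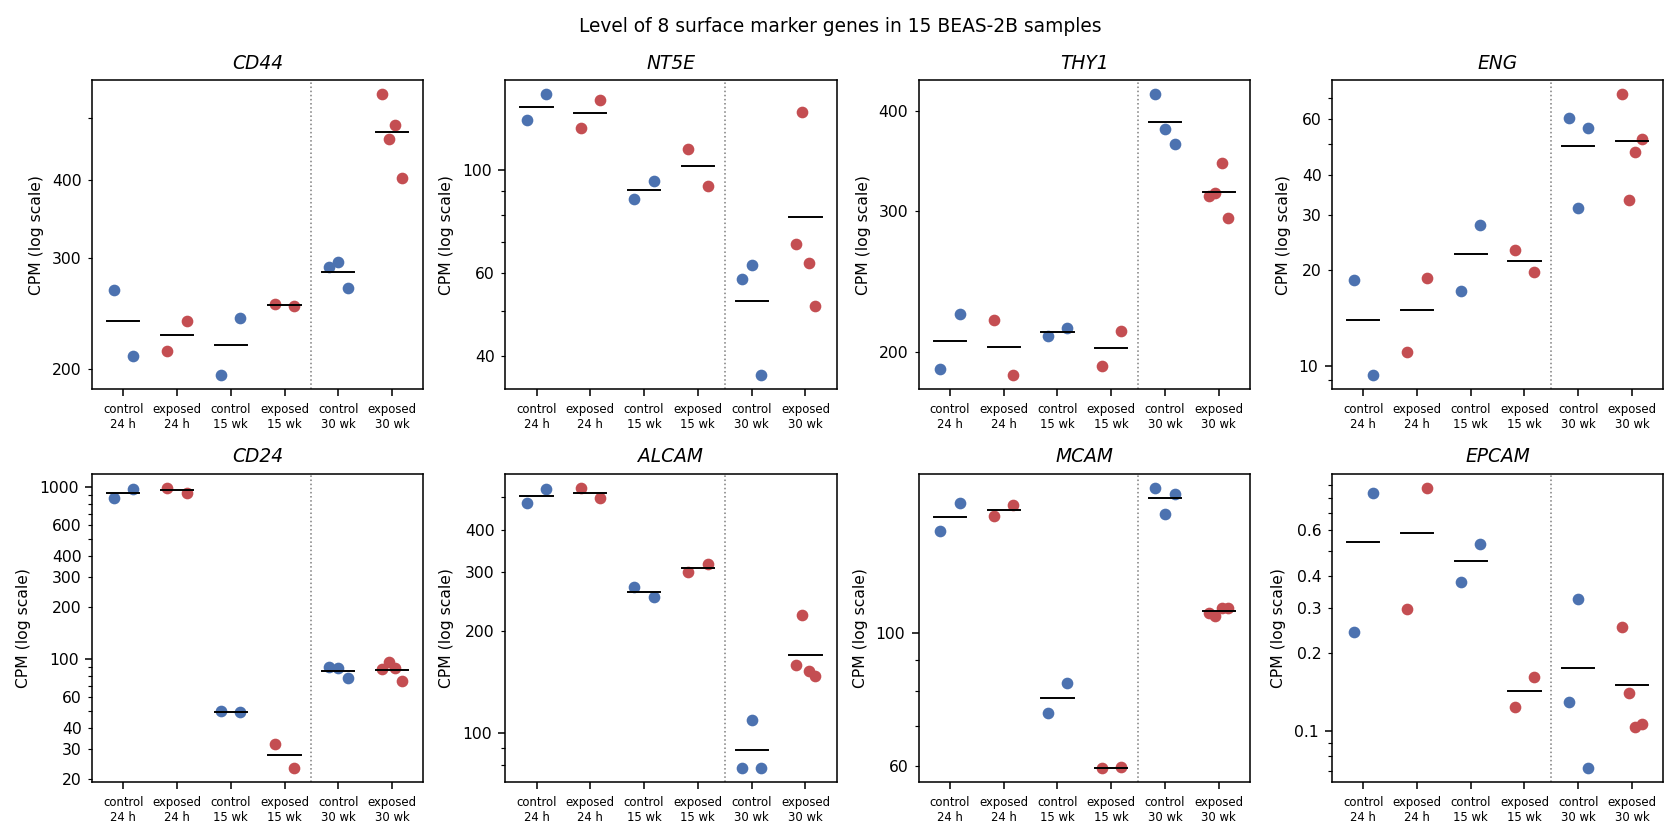
TMM-scaled CPM (log axis, own range in each panel) of the 8 genes with enough reads, with 1 point per sample and a black line at each group mean. Blue points are control and red points exposed cells, and the dotted line separates the samples of batch 1 from those of batch 2. CD24 fell from between 864 and 992 CPM at 24 h to under 50 CPM at 15 weeks in control and exposed cells, and the 4 exposed samples of 30 weeks lay above the 3 controls in CD44 and ALCAM and below them in MCAM and THY1.

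The first comparison asked whether cells exposed for 24 h differed from their controls. None of the 8 genes was called, and neither was any of the 16740 genes (0%), with 277 genes at an unadjusted p under 0.05 and 0 genes called by DESeq2 or limma-voom. CD44 was at 267 and 210 CPM in the control samples and at 214 and 239 CPM in the exposed samples, a difference of -0.07 ± 0.171 (log2, SE) with a 95% interval from -0.44 to 0.29. CD24 was at 864 and 976 CPM in controls and at 992 and 927 CPM in exposed samples, a difference of 0.06 with an interval from -0.3 to 0.42. The samples of both groups overlapped in all 8 genes, whereas they did not overlap in 26% of all genes. For THY1, ALCAM and MCAM the intervals reached no further than 0.46 from 0 in either direction, while those of NT5E, ENG and EPCAM were wider (ENG from -0.74 to 0.94).

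At 15 weeks no member passed the test either, and again no gene of the 16740 was called (0%). There were 823 genes at an unadjusted p under 0.05, with 18 genes called by DESeq2 and 10 by limma-voom with 2 surrogate variables. The 2 members at an unadjusted p under 0.05 were CD24 and MCAM. CD24 was at 49.8 and 49.1 CPM in the control samples and at 32.3 and 23.2 CPM in the exposed samples, so both exposed samples lay below both controls. The difference was -0.83 ± 0.174 on the log2 scale, with an edgeR adjusted p of 0.414. It passed under 3 of the 14 alternatives tried, among them DESeq2. MCAM was at 73.6 and 82.4 CPM in controls and at 59.4 and 59.7 CPM in exposed cells, a difference of -0.39 ± 0.127 with an edgeR adjusted p of 0.797. With 2 samples a group, 5 of the 8 members had groups that did not overlap (CD44 and ALCAM higher, CD24, EPCAM and MCAM lower), against 45.3% of all genes.

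After 30 weeks, exposed cells held more CD44 and ALCAM and less MCAM than their controls, whereas CD24, ENG and EPCAM differed by less than the spread between samples and NT5E and THY1 did not pass the adjusted threshold. Thus 3 of 8 members were called, against 23.7% of all genes (12% higher and 11.7% lower). The 3961 genes behind that share became 2491 without control replicate 1 and 5704 (34.2%) without exposed replicate 2, where THY1 was the fourth member called. CD44, ALCAM and MCAM kept their call under each of the 17 alternatives tried. The samples did not overlap in 4 members, against 27.3% of all genes. The median difference of the 8 members was 0.04 and that of all genes 0.008.

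CD44 stood at 291, 296 and 269 CPM in the control samples and at 546, 464, 488 and 402 CPM in the exposed samples. Every exposed sample was above every control, and the control samples themselves lay close together. The difference was 0.73 ± 0.133 on the log2 scale, or 1.66-fold, with an edgeR adjusted p of 0.000797, and it was 0.74 without exposed replicate 2. The mean of the exposed cells at 30 weeks, 475 ± 59.6 CPM, was the highest of the 6 conditions, followed by their controls at 286 ± 14.3 CPM, and the samples of the other 4 conditions, between 196 and 267 CPM, overlapped from one to the next in that order.

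CD44 and NT5E also stand in gene panels that the study trimmed on these same samples, so the direction of either gene is not independent evidence. The reads of CD44 could include some from CD44-AS1 and CD44-DT, antisense transcripts that share 84 and 70 exonic bases with it, because the strand setting of the counting is not given in the sources used here. CD44-DT itself had at most 5 counts in any sample.

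ALCAM, which binds CD6 and other ALCAM molecules, was at 78.3, 109 and 78.6 CPM in the controls of 30 weeks and at 159, 224, 152 and 147 CPM in the exposed samples. The lowest exposed sample was above the highest control, and replicate 2 was the highest of all. The difference was 0.94 ± 0.16, or 1.92-fold, with an edgeR adjusted p of 0.000462, and it was 0.78 without exposed replicate 2. Both groups were still below the level at 24 h, where ALCAM stood between 482 and 534 CPM. The order of the 6 conditions was 24 h, 15 weeks, 30 weeks, with overlap between exposed and control cells at 24 h alone.

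MCAM, an adhesion molecule of endothelial, smooth muscle and melanoma cells, moved the other way. It was at 175, 158 and 171 CPM in controls and at 108, 107, 110 and 110 CPM in the exposed samples of 30 weeks. The 4 exposed samples were nearly equal, and all lay below the controls. The difference was -0.63 ± 0.096, a level 1.54-fold lower, with an edgeR adjusted p of 0.000186. Without exposed replicate 2 it was -0.62, and it was -0.41 with an adjusted p of 0.0127 when libraries were scaled by total counts alone.

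The end of MCAM overlaps CBL on the other strand by 509 exonic bases. CBL, a ubiquitin ligase, stood between 54.9 and 143 CPM and differed by 0.46 ± 0.183 at 30 weeks, the opposite sign to MCAM, with an edgeR adjusted p of 0.0827. USP2, a deubiquitinase 56 kb from MCAM, was lower in exposed cells by a log2 difference of -1.55.

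Of the trio that defines mesenchymal stromal cells, none was called at 30 weeks. NT5E, the enzyme that turns extracellular AMP into adenosine, was at 58.3, 62.6 and 36.4 CPM in controls and at 69.5, 133, 63.2 and 51.2 CPM in exposed samples. Replicate 2 was well above the other exposed samples, and the groups overlapped. The difference was 0.6 ± 0.26 with an edgeR adjusted p of 0.11, and it was 0.23 without replicate 2. It passed in 5 alternatives: limma-voom with 2 surrogate variables (0.46), no filter (0.61), scaling by total counts alone (0.8), the replicate block (0.74) and without exposed replicate 4 (0.76, edgeR adjusted p = 0.0411).

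THY1, a membrane-anchored protein of fibroblasts and neurons, was at 420, 380 and 364 CPM in controls and at 313, 316, 345 and 294 CPM in exposed samples. The groups did not overlap. The difference of -0.29 ± 0.113 had an edgeR adjusted p of 0.073, it shrank to -0.07 under scaling by total counts alone, and it was -0.29 with an adjusted p of 0.0499 without exposed replicate 2. THY1 shares 632 exonic bases with THY1-AS1 on the other strand.

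ENG, a co-receptor for ligands of the transforming growth factor family, was at 60.7, 31.4 and 56.2 CPM in controls and at 71.9, 33.4, 47.2 and 52.1 CPM in exposed samples. The groups overlapped widely. The difference was 0.05 ± 0.291, with an interval from -0.57 to 0.67, and its sign changed without control replicate 2 or exposed replicate 1, to -0.19 and -0.16. It was 0.21 without exposed replicate 2.

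CD24 was at 90.5, 89.3 and 77.6 CPM in the controls of 30 weeks and at 87.3, 96.4, 89.3 and 75.0 CPM in the exposed samples. The range of the controls lay within that of the exposed samples. The difference was 0.02 ± 0.131, with an interval from -0.26 to 0.3. Its sign changed under upper-quartile scaling and with surrogate variables, to -0.01, and without exposed replicate 2, to -0.03. Leaving out another sample also turned the sign, within the range given at the end. EPCAM had 3, 9 and 2 counts in controls and 7, 4, 3 and 3 counts in exposed cells, with a difference of -0.23 ± 0.721, or -0.2 without exposed replicate 2.

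**Figure D2:**
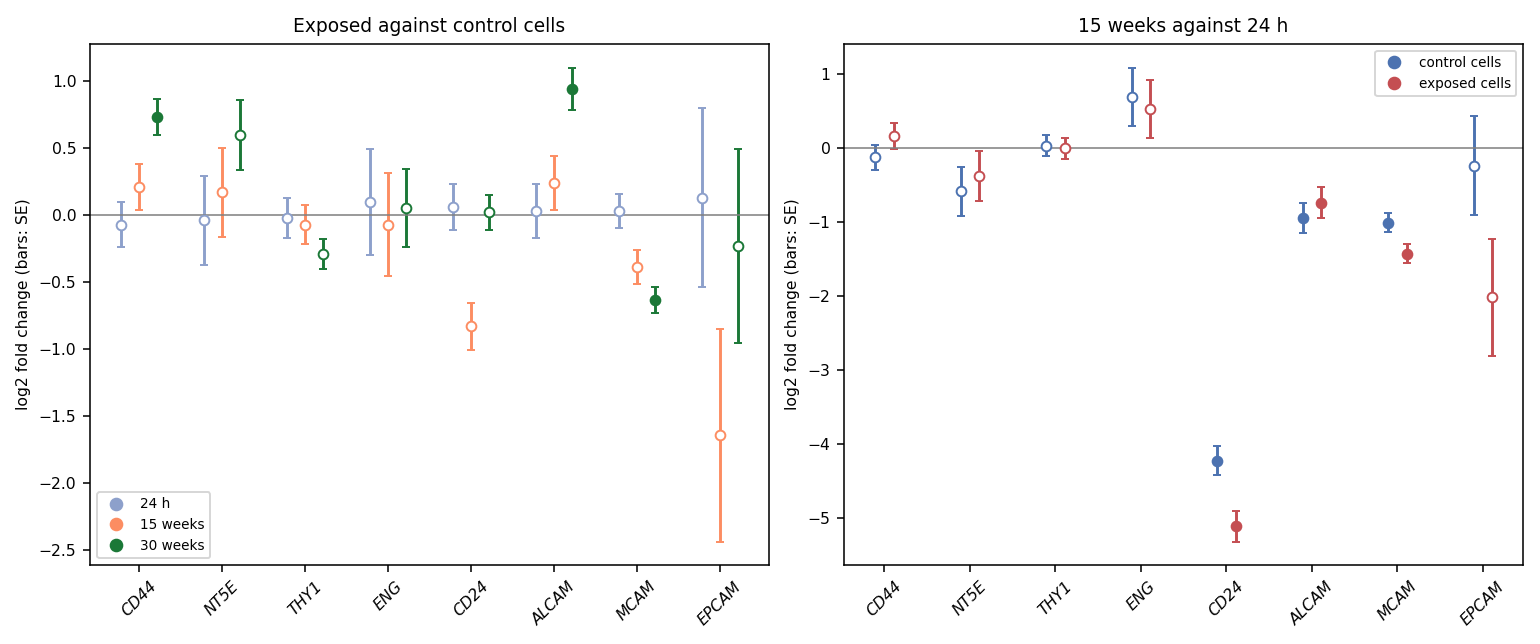
Log2 fold change of the 8 genes with its SE (bars), for exposed against control cells at the 3 time points (left) and for 15 weeks against 24 h in control and exposed cells (right), where filled points passed an edgeR adjusted p of 0.05. At 24 h and 15 weeks all points on the left are open, at 30 weeks CD44 and ALCAM are filled above 0 and MCAM below 0, and on the right CD24 lies at -4.22 and -5.11, below all others.

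Whether the effect of exposure at 30 weeks differed from that at 15 weeks was tested as a difference of differences. Across all genes 4.74% were called (2.66% with a positive and 2.08% with a negative change), and 1973 genes in limma-voom with 2 surrogate variables. Of the 8 members edgeR called 1, CD24. Its exposure difference was -0.83 at 15 weeks and 0.02 at 30 weeks, so the change between them was 0.85 ± 0.218 with an edgeR adjusted p of 0.0332. This call was lost in 7 of the leave-one-out fits, with the count of members called then 0, and when the 4 groups were fitted alone. Without exposed replicate 2 of 30 weeks it was 0.8 and still called (edgeR adjusted p = 0.0145). The 794 genes called among all became 1519 without that replicate, and 427, 483, 463 and 393 without control replicate 1 or 2 or exposed replicate 1 or 2 of 15 weeks. For CD44 the exposure difference was larger at 30 weeks by 0.52 ± 0.216 and for ALCAM by 0.7 ± 0.258, with edgeR adjusted p of 0.24 and 0.172, so neither was shown to differ between the time points. For MCAM the interval of the change ran from -0.57 to 0.1.

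The largest movement among the members was the fall of CD24 between 24 h and 15 weeks, in cells with and without PET-NPLs. In control cells CD24 went from 864 and 976 CPM to 49.8 and 49.1 CPM, and in exposed cells from 992 and 927 CPM to 32.3 and 23.2 CPM. No sample of 15 weeks came near one of 24 h. CD24 fell by 4.22 on the log2 scale in control cells (SE 0.194, 18.6-fold, edgeR adjusted p = 5.51e-10) and by 5.11 in exposed cells (SE 0.203, 34.6-fold, edgeR adjusted p = 2.51e-10). The 4 processed pseudogenes named after CD24 (CD24P1, CD24P2, CD24P4 and CD24P5) could share reads with it, so its counts are uncertain to that extent.

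ALCAM and MCAM also fell over the same time in both series of cells. ALCAM fell by 0.95 in control and by 0.74 in exposed cells, and MCAM fell by 1.01 and by 1.43. Thus 3 of 8 members were called in control cells, all lower, against 24.9% of all genes (12.7% higher and 12.2% lower), and 3 of 8 in exposed cells, all lower, against 26% (13.5% higher and 12.5% lower). Groups did not overlap in 4 members in control cells, against 68.9% of all genes, and in 7 in exposed cells, against 70.2%. The call of ALCAM in exposed cells was lost on leaving out any 1 of the 4 samples compared, with differences of -0.67 and -0.79 without replicate 1 or 2 of 24 h and of -0.7 and -0.77 without replicate 1 or 2 of 15 weeks, and under scaling by total counts alone (-0.6). CD44 differed by -0.13 ± 0.171 and 0.16 ± 0.171, THY1 by 0.03 and -0.01, and ENG by 0.69 ± 0.392 and 0.52 ± 0.392, none of them called, although ENG passed with 2 surrogate variables in control cells (0.9) and with the groups compared fitted alone in exposed cells (0.53).

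NT5E was not called over this time, but every sample of 15 weeks was below every sample of 24 h in both series. It was at 128 and 145 CPM at 24 h and 86.4 and 94.7 CPM at 15 weeks in control cells, and at 123 and 141 CPM and then 111 and 92.3 CPM in exposed cells. The differences were -0.59 ± 0.335 and -0.38 ± 0.334, with edgeR adjusted p of 0.226 and 0.451. They passed when only the groups compared were fitted (-0.54 and -0.37, edgeR adjusted p of 0.000569 and 0.0113) and in limma-voom with 2 surrogate variables (-0.78 and -0.46). EPCAM differed by -0.24 ± 0.668 in control and by -2.02 ± 0.789 in exposed cells (edgeR adjusted p = 0.0675), and the latter passed in 2 alternatives, with 2 surrogate variables (-2.01) and without exposed replicate 1 of 24 h (-2.57). The genes called among all, 4174 in control and 4349 in exposed cells, were between 2462 and 2693 and between 2526 and 2919 when any 1 of the samples compared was left out. Both series were compared within batch 1, but the cultures of 15 weeks had also been passaged for longer than those of 24 h, and time and passage cannot be told apart.

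Between 15 and 30 weeks most members differed, as did a large share of all genes, and this step coincides with the change of batch. In control cells 6 of 8 members were called, against 50.3% of all genes (25.6% higher and 24.6% lower), and in exposed cells 6 of 8, against 46% (23.3% higher and 22.7% lower). Groups did not overlap in all 8 members in control cells, against 68.1% of all genes, and in 6 in exposed cells, against 56.1%. MCAM went up by 1.1 in control and 0.87 in exposed cells, THY1 by 0.87 and 0.65, ENG by 1.14 and 1.25 and CD24 by 0.79 and 1.65, while ALCAM fell by 1.56 and by 0.86. NT5E fell in control cells by 0.79 (edgeR adjusted p = 0.0398), and CD44 rose in exposed cells by 0.91 (edgeR adjusted p = 0.000233). The call of NT5E was lost without control replicate 1 or 2 of 15 weeks (-0.85 and -0.72) or replicate 1 or 3 of 30 weeks (-0.88 and -0.59). The call of ENG was lost in control cells without replicate 1 of 15 weeks (0.84) or replicate 1 of 30 weeks (0.96), and in exposed cells without replicate 2 of 15 weeks (1.14). EPCAM in control cells differed by -1.35 ± 0.702 (edgeR adjusted p = 0.118) and passed without control replicate 2 of 30 weeks (-2.17, edgeR adjusted p = 0.0409) and under scaling by total counts alone (-1.71, edgeR adjusted p = 0.0491). CD44 in control cells differed by 0.39 ± 0.158 with an edgeR adjusted p of 0.0519, and passed under 5 alternatives: DESeq2 (adjusted p = 0.0357), limma-voom without and with 2 surrogate variables (0.038 and 0.0166), upper-quartile scaling (0.0477) and a minimum of 10 counts in each library (0.0407). NT5E in exposed cells differed by -0.36 ± 0.286, and by -0.73 without exposed replicate 2 of 30 weeks, where it was called (edgeR adjusted p = 0.00167), as it was in limma-voom with 2 surrogate variables (-0.61, adjusted p = 0.00062). The 7697 genes called in exposed cells became 5077 and 5069 without replicate 1 or 2 of 15 weeks. Scaled by total counts alone, the median of all genes over this step was -0.367 in control and -0.162 in exposed cells, and 26.4% of the genes called in control cells were higher in place of 51%. ENG in control cells was not called under that scaling (0.73), and CD44 in control cells differed by 0.

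The genes around the members were examined within 1 Mb, a window chosen after the members' values were seen. Around CD24 on chromosome 6 there were 10 tested neighbours, and from 24 h to 15 weeks in control cells their median was -0.22, against -4.22 for CD24. Of these neighbours CRYBG1 fell by 2.5 and SOBP by 2.06, and PRDM1 rose by 2.05. Around CD44 the 8 neighbours had a median of 0.1 between exposed and control cells at 30 weeks, with 1 of them, TRIM44, called at 0.47. The 36 neighbours of MCAM, THY1 among them at a distance of 107 kb, had a median of 0.04 with 4 higher and 3 lower. These counts of 30 weeks stand against 12% of all genes called higher and 11.7% called lower.

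**Figure D3:**
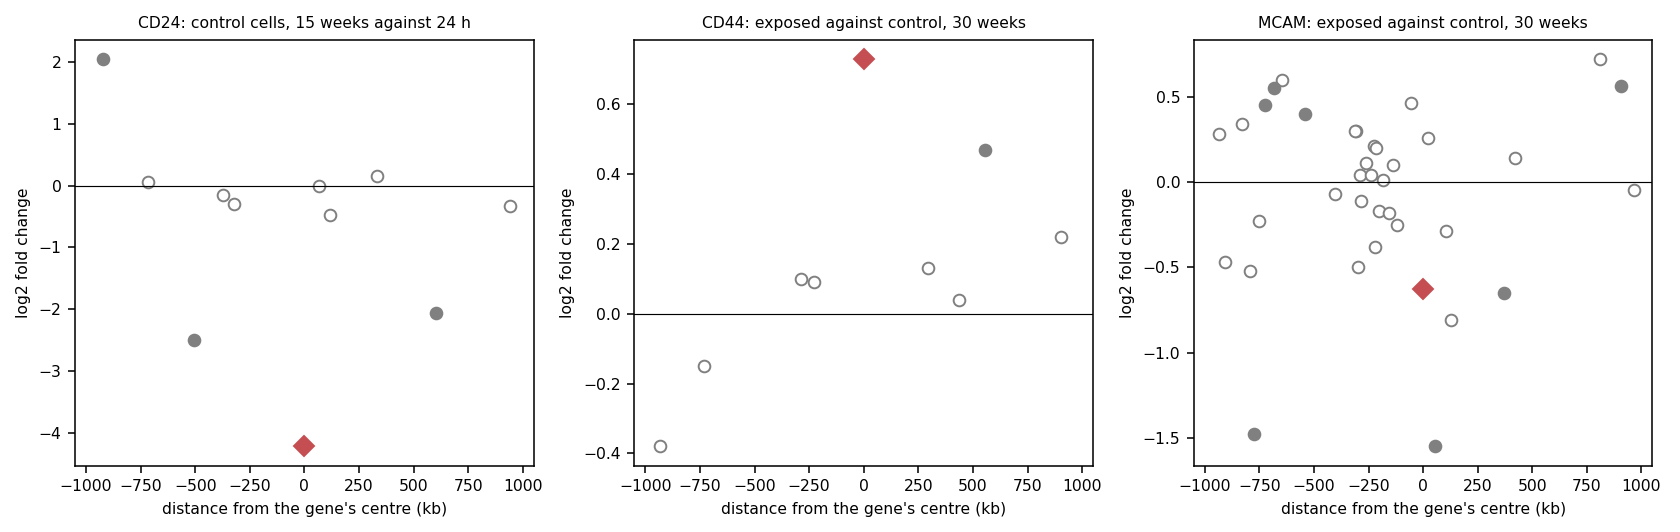
Log2 fold change of CD24, CD44 and MCAM (red diamonds at 0 kb) and of the tested genes within 1 Mb (grey circles, filled where the edgeR adjusted p was under 0.05) against the distance between gene centres in kb. CD24 at -4.22 and CD44 at 0.73 lie outside the range of their neighbours, and MCAM at -0.63 lies within the range of its 36 neighbours, from -1.55 to 0.72.

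The partners and relatives of the members were followed through lists of related genes, whose counts at 30 weeks are read against the 23.7% of all genes called. No gene of any list was called at 15 weeks. For the lists at 30 weeks, rose and fell mean higher and lower in exposed than in control cells, not a movement over time. Of 17 tested genes for hyaluronan metabolism and CD44 partners, 3 rose and 1 fell, with a list median of 0.01. CEMIP2, a surface protein linked to hyaluronan degradation, rose by 0.45 ± 0.104, the cytoskeletal linker RDX by 0.42 and the CD44-cleaving protease ADAM10 by 0.4. The gene that fell was HAS2, a hyaluronan synthase, from 0.647 ± 0.259 CPM in controls to 0.0175 ± 0.035 CPM in exposed cells, where no library exceeded 3 counts. No other group mean of HAS2 exceeded 0.119 CPM, so it passed the filter through these controls.

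Of 11 tested genes of extracellular adenosine metabolism, 3 rose and 1 fell (median 0.38). Adenosine deaminase (ADA) rose by 1.07 ± 0.12, from 16.1 to 33.8 CPM, and its surface-binding partner DPP4 by 1.29 ± 0.208, from 6.21 to 15.3 CPM. The nucleoside transporter SLC29A1 rose by 0.86, and the adenosine receptor ADORA1 fell by 0.98. For the receptor complex and targets of ENG, 5 of 14 tested genes rose and 5 fell (median 0.14). The inhibitory SMAD6 was higher in exposed cells by 1.57 ± 0.126. The receptor kinase TGFBR1 was lower by 1.33 and the targets ID1, ID2 and ID3 by 1.09, 2.41 and 0.84. From 15 to 30 weeks TGFBR1 went from 97.3 to 228 CPM in control and from 103 to 90.5 CPM in exposed cells. ID2 went from 57.2 to 250 CPM and from 73.4 to 47.2 CPM, and SMAD6 from 27.1 to 4.57 and from 30.3 to 13.6 CPM. ID1 went from 103 to 144 CPM and from 89.8 to 67.7 CPM, ID3 from 177 to 165 and from 168 to 92.5 CPM.

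Of 16 tested aldehyde dehydrogenases, 6 rose and 1 fell (median 0.26). ALDH1A3, another retinaldehyde dehydrogenase, stood at 310.0 CPM in control cells of 24 h, 32.4 CPM at 15 weeks and 2.57 ± 0.354 CPM at 30 weeks. Exposed cells held 301 CPM, 32.8 CPM and 15 ± 0.64 CPM at the same times. At 30 weeks the level was higher in exposed cells by 2.55 ± 0.126, with an edgeR adjusted p of 1e-09. ALDH5A1 rose by 1.01, and mitochondrial ALDH1B1 fell by 0.89. Of 11 tested genes of retinoic acid signalling, which uses the product of the ALDH1A enzymes, 0 rose and 2 fell (median 0.19). The retinoid carrier CRABP2 stood at 25 ± 3.65 CPM in controls and at 0.441 ± 0.226 CPM in exposed cells. At 15 weeks CRABP2 had stood at 2.43 and 0.778 CPM in control and exposed cells.

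Among 20 tested immunoglobulin superfamily adhesion molecules other than the members, 6 rose and 4 fell (median 0.03). VCAM1, a receptor for leukocyte integrins, was at 17.8 ± 2.6 CPM in controls and at 0.0445 ± 0.0532 CPM in exposed cells, where no library exceeded 3 counts. VCAM1 had stood at 0.569 and 0.079 CPM in control and exposed cells of 15 weeks. JAM2 fell by 3.03 and ICAM1 rose by 2.12. The nearest paralogs gave 2 rises among 6 tested genes, ALDH1A3 and TGFBR3 (0.81 ± 0.155). BCAM differed by 0.03 ± 0.295. PROM2 differed by 1.5 ± 0.548 with an edgeR adjusted p of 0.0529 and ALDH1A2 by -1.04 ± 0.578.

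Of 18 other stem cell markers tested, 2 rose and 6 fell (median -0.14). The receptor kinase KIT was at 0.917 CPM in controls and 8.68 CPM in exposed cells, a rise of 3.23 ± 0.234, after 15.9 and 16.2 CPM at 15 weeks. The intermediate filament NES was lower by 6.07 ± 0.48, at 12.8 CPM in controls and 0.185 CPM in exposed cells. At 15 weeks NES had stood at 1.1 and 0.47 CPM in control and exposed cells. Between exposed and control cells of 30 weeks the transcription factor SOX9 differed by -2.07 and the integrin ITGB4 by -2.32. From 15 to 30 weeks SOX9 went from 2.72 to 26.5 CPM in control and from 2.1 to 6.29 CPM in exposed cells. ITGB4 went from 5.07 to 61.4 CPM in control and from 4.74 to 12.3 CPM in exposed cells. Both genes were thus higher at 30 than at 15 weeks in exposed cells too, across the change of batch. Of 19 other mesenchymal stromal markers tested, 2 rose and 4 fell (median -0.14), of which the muscle filament DES fell by 4.19 and BST2 rose by 2.51. Of 8 markers that mesenchymal stromal cells are held to lack, 3 could be tested: CD14 rose by 1.72, from 1.48 to 4.91 CPM, and CD34 and ITGAM differed by -1.38 ± 0.567 and -1.16 ± 0.593.

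Without exposed replicate 2 of 30 weeks, no called gene of the 10 lists above lost its call, and 34.2% of all genes were called. The genes higher and lower were then 4 and 3 for hyaluronan metabolism and CD44 partners (median 0.08), 3 and 2 for adenosine metabolism (median 0.16), 1 and 2 for retinoic acid signalling (median 0.34), 7 and 5 for immunoglobulin superfamily adhesion molecules (median 0.08), 3 and 8 for stem cell markers (median -0.38) and 3 and 5 for mesenchymal stromal markers (median -0.09). The counts for the ENG complex, the aldehyde dehydrogenases, the paralogs and the markers that mesenchymal stromal cells are held to lack did not move.

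**Figure D4:**
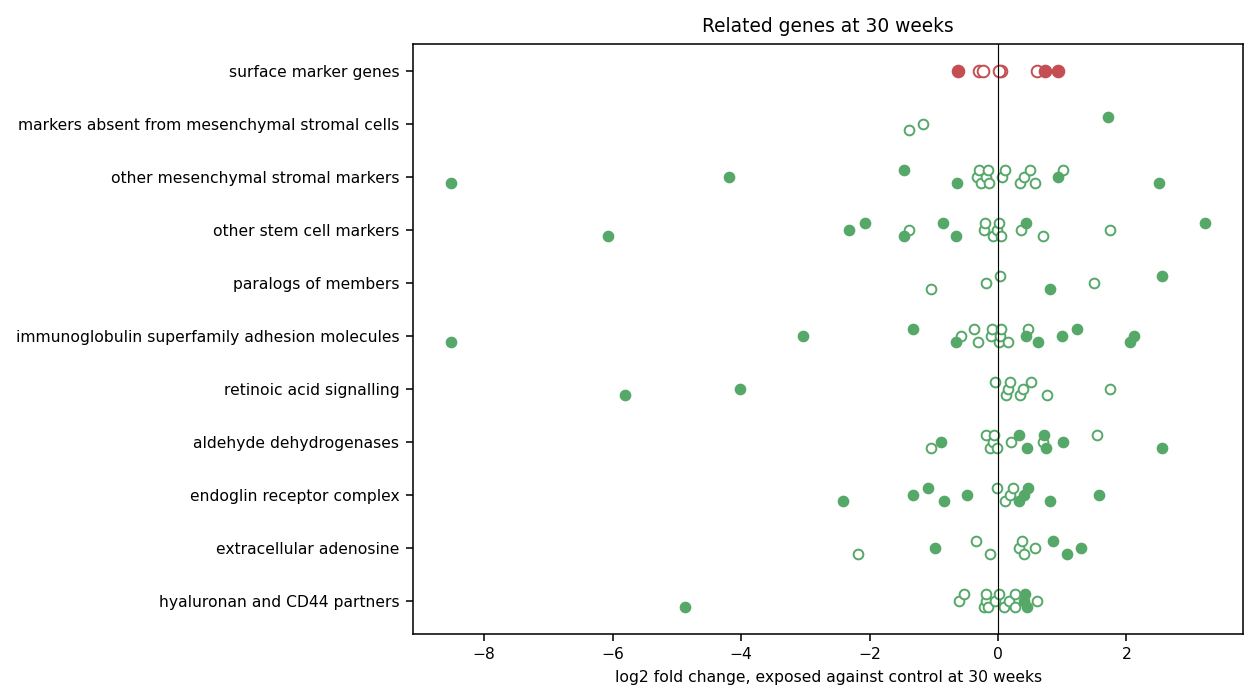
Log2 fold change of exposed against control cells at 30 weeks for the tested genes of each list and for the 8 surface marker genes (top), with 1 circle per gene, filled where the edgeR adjusted p was under 0.05 and spread vertically only to separate them. The surface marker genes lie between -0.63 and 0.94, a narrower range than that of most lists, and VCAM1 at -8.52 appears in 2 lists. For genes under 3 counts in exposed cells the position depends on the prior count.

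Markers of other cell types moved with several of these comparisons, and their part in the members' differences was not tested. The summed level of 11 epithelial markers was between 2120 and 2460 CPM at 24 h and between 826 and 1040 CPM at 15 weeks. At 30 weeks it was between 315 and 412 CPM in controls and between 882 and 1100 CPM in exposed cells, so it was higher where CD44 and ALCAM were higher and MCAM lower. Of the 8 tested genes of this list 3 were higher in exposed cells at 30 weeks. They were KRT8, its most abundant gene over the 15 samples, by 2.04, KRT18 by 0.8 and KRT19 by 1.93. The other 5 were not called, with CDH1 at -0.12, EPCAM at -0.23, CLDN4 at -0.65, KRT7 at 0.01 and KRT17 at 1.45. Here and below, counts of 30 weeks stand against 12% of all genes called higher and 11.7% lower. From 15 to 30 weeks KRT8 went from 545 to 150 CPM in control and from 588 to 616 CPM in exposed cells. KRT18 went from 310 to 194 and from 335 to 338 CPM, and KRT19 from 2.45 to 0.766 and from 1.77 to 2.88 CPM. Without exposed replicate 2, KRT7 was at -0.38 and KRT17 at 0.37, neither called. Between 24 h and 15 weeks in control cells, when CD24 fell, 4 of the 8 fell, against 12.2% of all genes called lower. The log2 changes were -6.19 for KRT7, -6.43 for KRT17, -3.38 for CDH1 and -2.17 for KRT19, while KRT8 and KRT18 differed by 0.18 and -0.1. The 7 pericyte and smooth muscle markers summed to between 222 and 364 CPM in controls and between 187 and 332 CPM in exposed cells at 30 weeks, mostly CSPG4, and those groups overlapped. Of the 7, DES fell, and without exposed replicate 2 ACTA2 also rose, by 1.15 (edgeR adjusted p = 0.0486). At 30 weeks the 7 fibroblast markers summed to between 24.2 and 90.0 CPM in controls and between 8.31 and 13.5 CPM in exposed cells, mostly COL1A1, with DCN at no more than 7 counts in any sample. Of 5 tested fibroblast markers, at 30 weeks, COL1A1 fell by 2.91 and LUM fell by 2.59, COL1A2 rose by 3.28, from 0.312 to 3.2 CPM, and the list median was 0.11. Without exposed replicate 2 the same 3 genes were called, and the median of the 4 genes then tested was -1.21. At 30 weeks the sum of the 8 skeletal muscle markers was at least 126 CPM in control samples and between 44.7 and 56.5 CPM in exposed samples. Nearly all of that gap was the myogenic factor MYOD1, at 85.3 ± 20 CPM in controls and 0.462 ± 0.21 CPM in exposed cells. In control and exposed cells MYOD1 had stood at 0.383 and 0.31 CPM at 24 h and at 3.87 and 1.46 CPM at 15 weeks. Of 5 tested muscle markers, at 30 weeks, MYOD1, MYOG and DES were lower in exposed cells, while TTN differed by -0.02 and MYH3 by 0.15. MYOG and DES stood at 2.67 and 1.68 CPM in controls of 30 weeks, and no other group mean exceeded 0.0875 CPM. Both thus passed the filter through those controls, and their lower level in exposed cells is no separate result.

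Endothelial and blood cell markers were low throughout, although some of them differed at 30 weeks. The 8 endothelial markers, the cell type in which MCAM is usually studied, summed to at most 3.73 CPM, with PECAM1 at no more than 9 counts and EMCN at 0 in all samples. All 4 endothelial markers that could be tested were called at 30 weeks, against 23.7% of all genes. The rest of the 8 had too few reads for a test. Genes this low could pass the filter through samples of 30 weeks alone, so this count is not a result about the list. VWF stood at 0.479 ± 0.232 CPM in control and 1.61 ± 0.515 CPM in exposed cells, and KDR at 0.0767 ± 0.0371 and 0.351 ± 0.177 CPM. TIE1 stood at 1.92 ± 0.178 CPM in control and 0.434 ± 0.301 CPM in exposed cells. CDH5 had 0 counts in the 3 controls and stood at 0.444 ± 0.302 CPM in exposed cells, at least 3.86-fold higher when the controls are set to 3 counts per library. Without exposed replicate 2, KDR could not be tested and the other 3 were called. The 8 blood cell markers summed to at most 7.57 CPM, mostly CD14, with CD3E at 0 in all samples and PTPRC at no more than 7 counts.

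**Figure D5:**
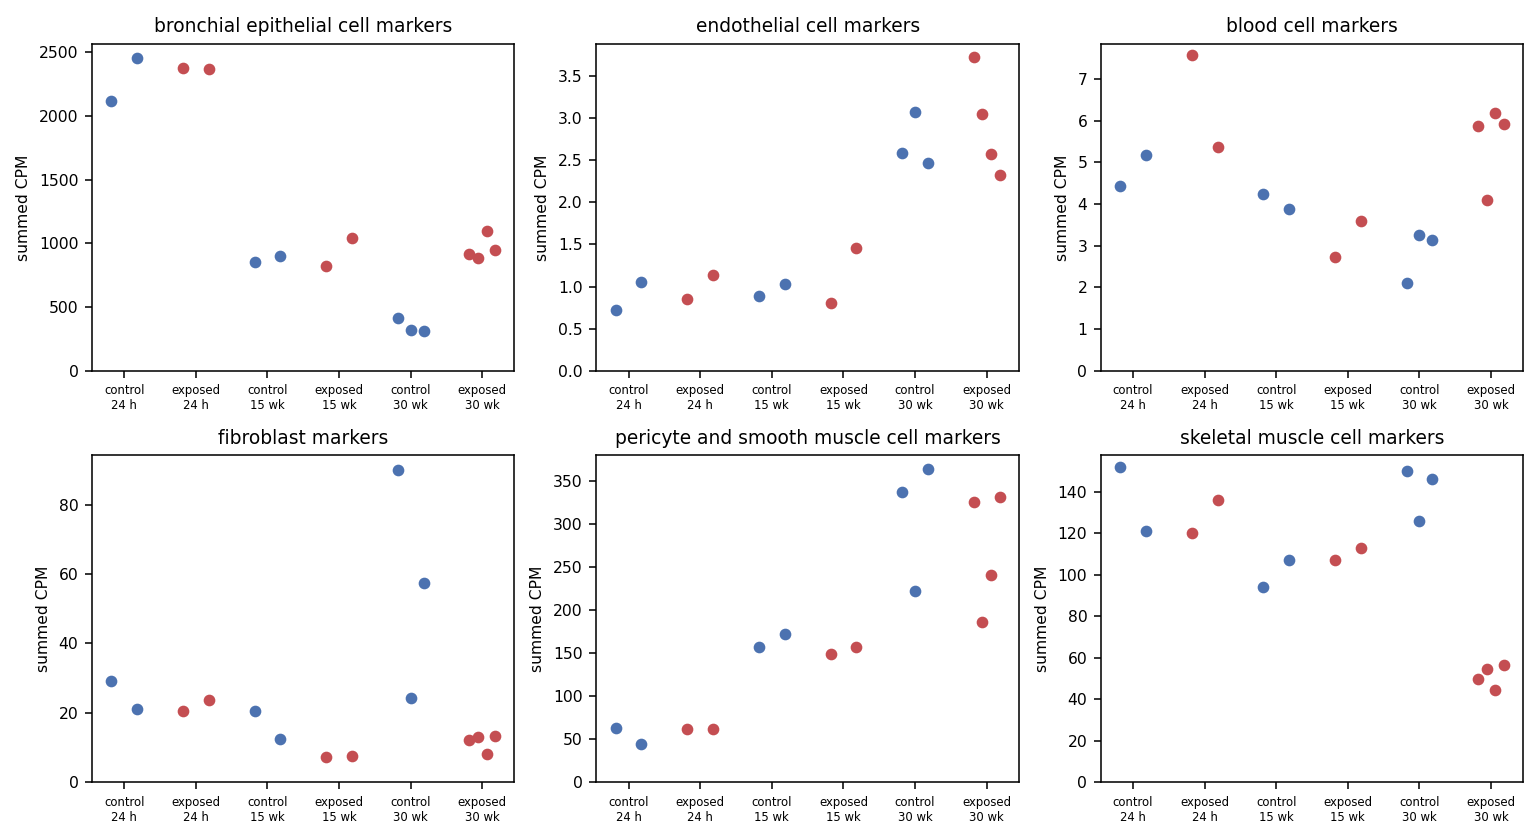
Summed TMM-scaled CPM of the marker genes of 6 cell types, with 1 point per sample (blue control, red exposed; linear axes from 0, own range in each panel). The epithelial sum is lowest in the 3 control samples of 30 weeks (315 to 412 CPM), the skeletal muscle sum is lowest in the 4 exposed samples of 30 weeks (44.7 to 56.5 CPM), and endothelial and blood cell markers stay at or below 3.73 and 7.57 CPM.

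The genes whose levels followed each member most closely over the 15 samples were KITLG for ALCAM (Pearson's r of log2 CPM 0.994), SPINT2 for CD24 (0.992), CENPM for THY1 (0.991), SERPINH1 for MCAM (0.973), TPM3 for NT5E (0.971), FBXO41 for ENG (0.968), TMEM40 for CD44 (0.949) and NUDT9 for EPCAM (0.828). The second closest were ARHGAP29 for ALCAM (0.988), TMEM131L for CD24 (0.979), EIF5A for THY1 (0.984), ISG20 for MCAM (0.968), ABCB10 for NT5E (0.963), TMEM214 for ENG (0.964), ABI3BP for CD44 (0.944) and ZSCAN21 for EPCAM (0.82). These describe 15 points that share time points, batches and treatment, and the closest in each case came out of the 13448 genes compared (13449 for EPCAM). KITLG encodes the ligand of KIT, SPINT2 an inhibitor of surface serine proteases and SERPINH1 a collagen chaperone.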

How the data were processed

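The deposited table holds raw read counts per gene (Entrez numbers) for the 15 samples. Per the paper's methods and the labels, the authors prepared stranded total RNA libraries after ribosomal depletion, trimmed the reads with Rfastp, discarded those under 20 bases, mapped them to GRCh38 and counted them with featureCounts of Rsubread. The strand setting, the treatment of reads with several positions and the number of surrogate variables are not given in the sources used here. Symbols were assigned by Entrez number from RefSeq, which named 27745 of the 28395 genes, all 10 members among them.

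Genes were kept by filterByExpr, scaled by TMM and fitted with the quasi-likelihood test of edgeR 4.0.16 (R 4.3.3) on all 15 samples, with 1 coefficient per group and Benjamini-Hochberg adjustment over the 16740 genes tested. The fit was tested on simulated data. CPM for single samples was counts over the TMM-scaled library size, and log2 CPM for likeness used a prior count of 2. Likeness was computed among genes with a mean of at least 1 CPM. Depth was 23143202 to 31459990 counts per sample, and after TMM scaling 1 CPM stood for 23 to 34 counts.

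All 10 members are reported. Of each related list, the 2 called genes with the largest change at 30 weeks were named, or all genes of a list with 6 or fewer tested, and the 2 genes most alike each member. Some genes of these lists are not reported here. The other genes named were chosen after their values were seen. The members and lists were chosen with earlier results of these data known. Alternatives were DESeq2 1.42.0, limma-voom (limma 3.58.1) without and with 2 surrogate variables (sva 3.50.0), upper-quartile scaling, a fit of the compared groups alone, all genes unfiltered, a minimum of 10 counts in each library, the replicate number as a block, leaving out 6 small noncoding RNAs or each sample in turn, an adjusted p under 0.01 and, chosen after seeing the data, scaling by total counts alone and the list counts without exposed replicate 2 of 30 weeks.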

Additional observations from a re-analysis of the deposited data

Results flagged for a closer look

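ALCAM in replicate 2 of the exposed cells at 30 weeks, at 224 CPM, lay far from the other 3 exposed samples, which stood at 159, 152 and 147 CPM. The gap to the nearest of them was 0.849 of the whole range of the group, above Dixon's critical value of 0.829 for 4 samples. Chance alone gives such a value in about 5% of groups, and 8 genes were examined. The difference between exposed and control cells was 0.94 with this sample and 0.78 without it, and ALCAM was called in both cases.

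The effect of exposure on CD24 differed between 15 and 30 weeks by 0.85 ± 0.218 on the log2 scale (edgeR adjusted p = 0.0332). At 15 weeks both exposed samples lay below both controls, and at 30 weeks the groups overlapped. The samples of 30 weeks belong to the other batch, and time and batch cannot be told apart.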

How the results depend on the processing

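CD44, ALCAM and MCAM kept their direction and their call between exposed and control cells at 30 weeks under all 17 alternatives, with log2 fold changes from 0.66 to 0.95, from 0.78 to 1.14 and from -0.67 to -0.41. With limma-voom and 2 surrogate variables, the number of members called rose to 5 at 30 weeks (NT5E at 0.46 and THY1 at -0.27 in addition), to 1 at 15 weeks (CD24), to 2 for the change between the exposure effects of 15 and 30 weeks (CD24 and ALCAM), and to 5 between 24 h and 15 weeks in both control and exposed cells. DESeq2 called 1 member at 15 weeks (CD24) and also THY1 at 30 weeks (-0.29). Fitting only the groups compared gave 2 members at 15 weeks (CD24 and MCAM), 5 for exposed cells between 24 h and 15 weeks and 0 for the change between exposure effects, where an adjusted p under 0.01 also gave 0. Over all genes, fitting only the groups compared called 304 at 15 weeks, 2370 at 30 weeks, and 6800 and 6916 between 24 h and 15 weeks in control and exposed cells. Limma-voom with 2 surrogate variables called 6473 and 6383 genes between 24 h and 15 weeks in control and exposed cells. It called 5665 at 30 weeks and 1973 for the change between exposure effects. An adjusted p under 0.01 called 2166 at 30 weeks and 403 for the change between exposure effects. For that change, leaving out 1 sample gave between 0 and 1 members. It was 0 without control replicate 1 or 2 or exposed replicate 2 of 15 weeks, control replicate 2 or 3 of 30 weeks, or exposed replicate 1 or 3 of 30 weeks. THY1 at 30 weeks was also called with upper-quartile scaling (-0.32), and NT5E without a filter (0.61) and with total counts alone (0.8). Leaving out 1 sample gave THY1 from -0.34 to -0.22 and NT5E from 0.23 to 0.76. CD24 turned to -0.01 with surrogate variables and with upper-quartile scaling, and ranged from -0.04 to 0.09 when 1 sample was left out. EPCAM turned to 0.01 with surrogate variables and to between -0.61 and 0.59, and ENG to between -0.19 and 0.23, when 1 sample was left out. The cause of these shifts was not tested.

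Whether replicate numbers pair the samples could not be decided. The deviations of same-numbered samples correlated at -0.0601 at 24 h, 0.029 at 15 weeks and -0.118, 0.303 and 0.0981 at 30 weeks. With 2 samples a group, differently numbered samples necessarily give the same value with the opposite sign. At 30 weeks differently numbered samples gave values between -0.481 and 0.359. With the replicate number as a block, NT5E at 30 weeks became 0.74 (edgeR adjusted p = 0.00784) and EPCAM 0.03. A sample left alone in its group was assumed to vary like the other groups. PROM1 and ALDH1A1 could be fitted only without a filter, and EPCAM, with at most 24 counts, was limited by depth.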
